A study of Rattus norvegicus with 6 samples.

Results

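The genes described here are markers of fast skeletal muscle fibers that were counted in RNA from a sensory nerve. The list held 10 symbols, Acta1, Ckm, Mylpf, Tnnt3, Tnni2, Tnnc2, Atp2a1, Pvalb, Myh4 and Actn3, and a gene was taken where its symbol in the deposited table was exactly the same. Of the 10 symbols, 9 were found among the 34106 genes of the table, and all 9 passed the filter on low counts that kept 15374 genes. Myh4 was not matched by symbol and was not analysed here.

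RNA-seq was performed on the inferior alveolar nerve (IAN), the branch of the trigeminal nerve that carries sensation from the lower teeth, chin and lower lip. The animals were male Sprague–Dawley rats, aged 6 to 7 weeks at purchase. In the IANX group (3 libraries) the outer bone of the lower jaw was removed to reach the nerve. The IAN and the mental nerve were then cut, with a gap between the stumps, and left unsutured. In the Sham group (3 libraries) they were not cut, and removal of bone is not stated for this group. All rats had the left cheek skin and the masseter, a jaw-closing skeletal muscle, incised, and the nerve was excised 14 days after surgery. No transgene or drug was given to either group, and the treatment label of the IANX libraries reads "transfection" where the study describes a transection. Total counts were 13988750 to 17105402 per library.

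Skeletal muscle fibers contract when actin thin filaments slide along myosin thick filaments. Calcium released from the sarcoplasmic reticulum binds the troponin complex on the thin filament and starts contraction, and calcium pumps end it by returning calcium to the store. Fast fibers use their own isoforms of many of these proteins. A sensory nerve holds axons, Schwann cells, fibroblasts and vessels, and is not itself built of muscle fibers, although it runs close to the muscles of the jaw. Pvalb, which encodes the calcium buffer parvalbumin, is made by fast fibers in rodents but also by some neurons.

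Transcription of these genes in muscle is known to use a few short promoter motifs. Promoters of 7 of the 9 genes were found in the RefSeq table of build GRCr8. The 250 bases before the annotated start are printed for the 3 of these 7 genes with the highest mean FPKM (fragments per kilobase of gene, scaled to the library), 5′ to 3′ on the strand of the gene, so that the genes that moved together can be read against their sequence. Acta1 lies at chr19:68784195-68784444 (minus strand), Tnnc2 at chr3:173935340-173935589 (minus strand) and Ckm at chr1:88189211-88189460 (plus strand).
Acta1: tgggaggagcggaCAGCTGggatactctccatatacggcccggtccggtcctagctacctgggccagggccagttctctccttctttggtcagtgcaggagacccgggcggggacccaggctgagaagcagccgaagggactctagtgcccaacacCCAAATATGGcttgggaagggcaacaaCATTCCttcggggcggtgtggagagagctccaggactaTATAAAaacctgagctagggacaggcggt
Tnnc2: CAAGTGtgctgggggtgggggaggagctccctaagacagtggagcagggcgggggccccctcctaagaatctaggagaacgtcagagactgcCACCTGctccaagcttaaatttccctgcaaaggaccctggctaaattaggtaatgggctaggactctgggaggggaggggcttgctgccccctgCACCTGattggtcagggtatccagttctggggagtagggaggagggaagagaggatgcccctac
Ckm: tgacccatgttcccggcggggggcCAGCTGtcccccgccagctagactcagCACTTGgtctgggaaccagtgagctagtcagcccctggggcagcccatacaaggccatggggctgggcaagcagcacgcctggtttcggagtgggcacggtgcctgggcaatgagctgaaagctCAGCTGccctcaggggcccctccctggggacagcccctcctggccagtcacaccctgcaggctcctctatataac
Capitals mark every match, on either strand, to the E-box CANNTG that myogenic factors bind, the MCAT element CATTCC, the TATA box TATAAA, the CArG box of serum response factor or the MEF2 site. No match of one kind overlapped another in these 3 sequences. The E-box was found in 6 of the 7 promoters and in 65.5% of the 33469 rat promoters in the table. The MCAT element and the CArG box were found in 1 of the 7, Acta1, against 12.1% and 1.5% of all promoters. TATAAA was found in Acta1 and Tnni2, and in 12.9% of all promoters. The MEF2 site was found in 0 of the 7 windows, and in 2.96% of all promoters. No motif was found in all 7 promoters, since Actn3 held none of the 5, and a match is a description of letters only.

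The summed counts of the 9 genes, called muscle RNA here, spanned a wide range within each group, and the ranges of the groups overlapped. The part of cells outside muscle in these counts was not tested. Together the 9 genes took 0.0361%, 0.0234% and 0.00592% of the counts of Sham 1, 2 and 3, and 0.141%, 0.0099% and 0.0175% of those of IANX 1, 2 and 3. The 95% Clopper-Pearson interval was 0.139% to 0.143% in IANX 1 and 0.00554% to 0.00632% in Sham 3. These intervals cover counting error only. As CPM (counts per 1000000 of the TMM-normalized library size), the sum of the 9 genes was 18.2-fold higher in IANX 1 than in Sham 3, the highest and the lowest library. Within Sham it was 6.47-fold higher in Sham 1 than in Sham 3, and within IANX it was 13.5-fold higher in IANX 1 than in IANX 2. In bulk RNA, more muscle cells and more RNA per muscle cell cannot be told apart.

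The order of the libraries was nearly the same for every gene. IANX 1 was the highest library for 9 of 9 genes, while 18.3% of all tested genes were highest there. Sham 1 was second for 8 genes, with Pvalb the exception. Sham 3 was the lowest for 6 genes and IANX 2 for the other 3, Tnnt3, Pvalb and Actn3. Of the 9 genes, 8 were over 2-fold higher in IANX 1 than in both other IANX libraries and over 2-fold higher in Sham 1 than in Sham 3, with Tnnt3 the exception, beside 0.644% of all tested genes. That rule was set after the values were seen. The range of Sham overlapped that of IANX for all 9 genes, while the groups did not overlap for 51.5% of all tested genes.

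**Figure D1:**
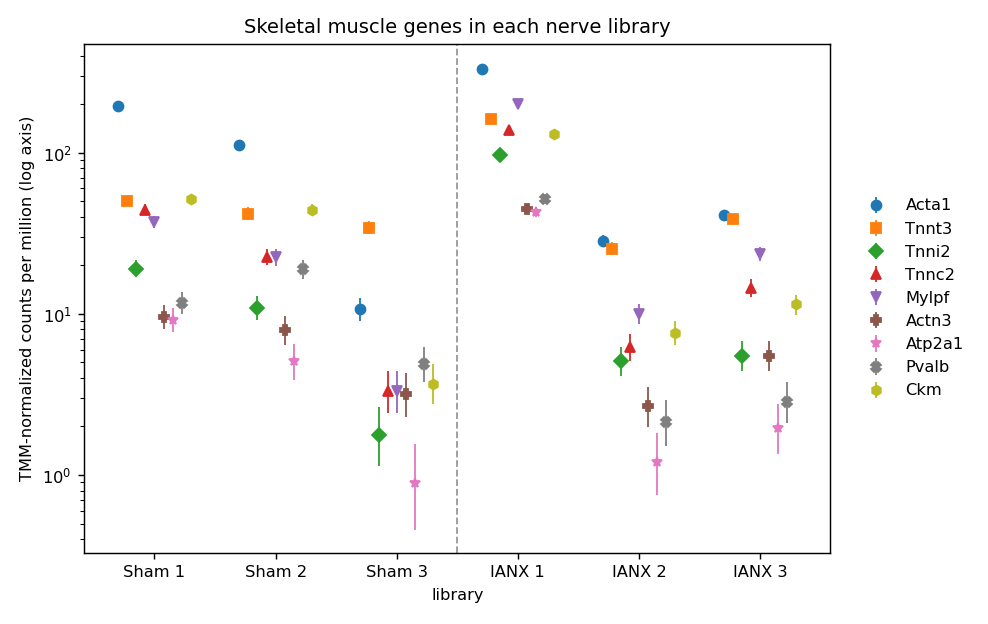
TMM-normalized CPM (log axis) of the 9 skeletal muscle genes in each of the 6 libraries, with 95% exact Poisson intervals as bars (counting error only) and a dashed line between the groups. All 9 genes are highest in IANX 1, and Acta1 is at 194 CPM in Sham 1 and at 10.7 CPM in Sham 3.

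Acta1, which encodes the actin of the skeletal muscle thin filament, had the highest mean FPKM of the 9 genes (82.4 over the 6 libraries). The gene is ENSRNOG00000017786 at chr19:56674074-56677084 on the minus strand of rn6. Its levels were 194, 112 and 10.7 CPM in Sham 1, 2 and 3 and 331, 28.4 and 41.0 CPM in IANX 1, 2 and 3. IANX 2 and IANX 3 were below Sham 1 and Sham 2 but above Sham 3, so the groups were interleaved. The interval from counting was 187 to 202 CPM in Sham 1 and 9.04 to 12.6 CPM in Sham 3, far narrower than the 18.1-fold gap between these libraries. The edgeR log2 fold change of Acta1, IANX over Sham, was 0.34 ± 1.14 (SE, n = 3 per group, adjusted p = 0.838).

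The 3 fast troponin subunits differed in how closely they followed Acta1. Tnnt3 encodes fast troponin T, which anchors the complex to tropomyosin (ENSRNOG00000020332, chr1:215666628-215683628, plus strand). Its levels were 50.2, 41.9 and 34.2 CPM in Sham 1 to 3, and 161, 25.3 and 38.8 CPM in IANX 1 to 3. Sham 3 was therefore within 1.47-fold of Sham 1 for this gene, the smallest such gap of the 9, and only IANX 1 stood apart. Tnni2 encodes fast troponin I, the inhibitory subunit (ENSRNOG00000020276, chr1:215609036-215611658, plus strand). It had 19.1, 10.9 and 1.77 CPM in Sham 1 to 3 and 96.6, 5.12 and 5.51 CPM in IANX 1 to 3. Tnnc2 encodes fast troponin C, the calcium-binding subunit (ENSRNOG00000015155, chr3:161243587-161246351, minus strand). It had 44.3, 22.6 and 3.32 CPM in Sham 1 to 3 and 139, 6.21 and 14.4 CPM in IANX 1 to 3. Tnni2 was 10.8-fold and Tnnc2 13.3-fold higher in Sham 1 than in Sham 3. The log2 fold changes between groups were 0.83 ± 0.64 for Tnnt3, 1.75 ± 1.25 for Tnni2 and 1.18 ± 1.21 for Tnnc2 (SE), and none passed the edgeR test (adjusted p = 0.337, 0.305 and 0.473).

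Mylpf encodes the regulatory light chain of fast myosin (ENSRNOG00000017645, chr1:198655742-198658583, plus strand). It had 36.9, 22.4 and 3.32 CPM in Sham 1 to 3 and 201, 10.02 and 23.5 CPM in IANX 1 to 3. This was the widest range of the 9 genes, 60.4-fold from Sham 3 to IANX 1, and this was the only gene for which IANX 3 exceeded Sham 2, a gap within counting error. Its log2 fold change was the largest of the 9, 1.90 ± 1.18 (SE), and did not pass (adjusted p = 0.244). Actn3 encodes the alpha-actinin that anchors thin filaments at the Z-disc of fast fibers (ENSRNOG00000019745, chr1:220120533-220136470, minus strand). It had 9.60, 7.91 and 3.18 CPM in Sham 1 to 3 and 45.0, 2.67 and 5.51 CPM in IANX 1 to 3, with a log2 fold change of 1.36 ± 0.99 (SE, adjusted p = 0.314). Here IANX 2 was the lowest library, just under Sham 3.

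Atp2a1 encodes SERCA1, the calcium pump of the sarcoplasmic reticulum in fast fibers (ENSRNOG00000047124, chr1:197856903-197858016, minus strand). It had 9.18, 5.08 and 0.886 CPM in Sham 1 to 3 and 42.6, 1.20 and 1.96 CPM in IANX 1 to 3. The lowest of these rests on 12 counts, with an interval of 0.458 to 1.55 CPM that overlaps the interval of IANX 2, 0.751 to 1.81 CPM. The deposited length of this gene is 543 bases. A neighbouring row without a symbol (chr1:197863420-197875056, minus strand) is described in the table by the rat SERCA1 protein, so counts of the pump may be spread over both rows. The sums of the rows were 182, 70 and 24 counts in Sham 1 to 3 and 1700, 25 and 64 counts in IANX 1 to 3, with the highest in IANX 1 again. The log2 fold change of Atp2a1 was 1.59 ± 1.35 (SE, adjusted p = 0.388).

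Pvalb (ENSRNOG00000006471, chr7:119429019-119441487, minus strand) had 11.7, 18.9 and 4.87 CPM in Sham 1 to 3 and 51.6, 2.12 and 2.84 CPM in IANX 1 to 3. It was the only gene of the 9 that was higher in Sham 2 than in Sham 1, and the only one for which Sham 3 exceeded both IANX 2 and IANX 3. Its log2 fold change was 0.68 ± 1.15 (SE, adjusted p = 0.675). The 12 markers of parvalbumin neurons and axons summed to 74.2, 87.5 and 79.8 CPM in Sham 1 to 3 and 139, 146 and 189 CPM in IANX 1 to 3, an order unlike that of Pvalb. Of the 9 of these markers that were tested, Gad1 (14.6 CPM) and Runx3 (10.6 CPM) were highest in IANX 1, as Pvalb was. Syt1, which was below the filter, was also highest there (14 counts). The part of neurons in the Pvalb level was not tested. Ckm encodes the muscle creatine kinase, which regenerates ATP from phosphocreatine (ENSRNOG00000016837, chr1:80321585-80331841, plus strand). It had 51.5, 44.1 and 3.69 CPM in Sham 1 to 3 and 131, 7.63 and 11.4 CPM in IANX 1 to 3, and its log2 fold change was 0.60 ± 1.20 (SE, adjusted p = 0.726). The strand setting of the counting is not given in the sources used here, and a gene annotated on the minus strand (chr1:80330049-80331626) overlaps Ckm, with 0 to 9 counts per library.

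Over the 9 genes, 0 passed the edgeR quasi-likelihood test at an adjusted p under 0.05, against 34.4% of all tested genes (17.8% higher and 16.6% lower in IANX). At an unadjusted p under 0.05 the count was also 0, and DESeq2 called 0 of the 9 at the adjusted and at the unadjusted level. The log2 fold changes were positive for 9 of 9 genes, with a median of 1.18 beside 0.08 over all tested genes. The median SD of log2 CPM within a group was 1.74 in Sham and 2.22 in IANX for the 9 genes, against 0.23 and 0.32 over all tested genes. Tnnt3 had the smallest SD of the 9 in each group, 0.28 in Sham and 1.40 in IANX.

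The direction rested on IANX 1. Without it, the log2 fold change was negative for 9 of 9 genes, from -0.32 ± 0.82 (SE) for Mylpf to -2.25 ± 0.59 for Pvalb, with a median of -1.18. Pvalb then passed as lower in IANX (edgeR adjusted p = 0.0318), and it was the only one of the 9 that passed, while 12.3% of all genes tested without IANX 1 were called lower. The other 8 genes had adjusted p-values from 0.186 to 0.805 in that fit. For Pvalb, the adjusted p ranged from 0.0318 to 0.899 over the 12 alternative analyses. For Acta1, the log2 fold change was also negative without Sham 3 (-0.22).

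**Figure D2:**
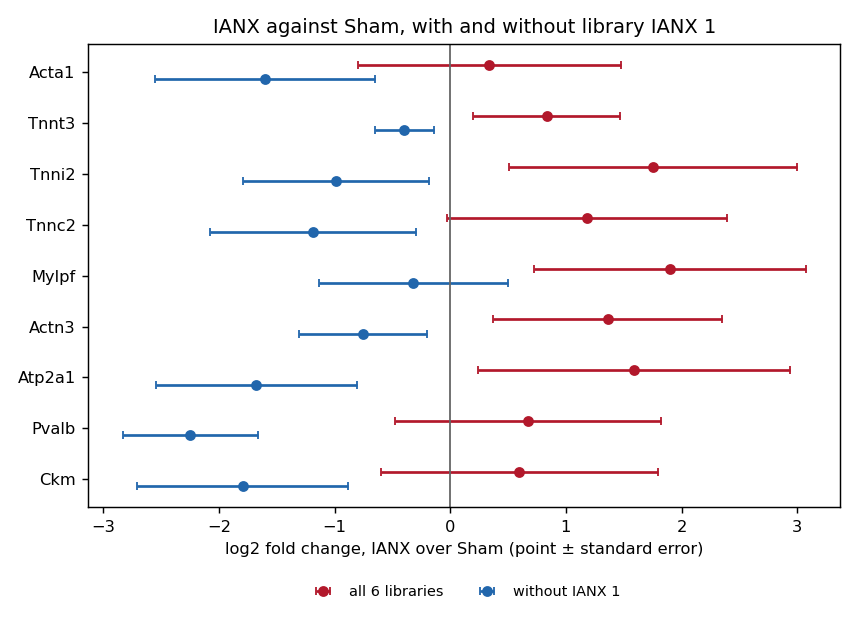
Log2 fold changes, IANX over Sham, of the 9 genes from edgeR with all 6 libraries (red) and without IANX 1 (blue), each point with its standard error as a bar. All 9 red points lie above 0, from 0.34 to 1.90, and all 9 blue points lie below 0, from -0.32 to -2.25.

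The make-up of the summed counts of the 9 genes also differed between nerves. Within Sham, Tnnt3 varied 1.47-fold in CPM and Acta1 18.1-fold, and a source of Tnnt3 outside muscle was not tested. Acta1 held 45.5% and 39.1% of the summed raw counts of the 9 genes in Sham 1 and Sham 2, 16.2% in Sham 3, and 27.6%, 32.0% and 28.3% in IANX 1 to 3. In Sham 3, where muscle counts were scarcest, Tnnt3 held 51.9% of the sum, and it held 28.6% and 26.8% in IANX 2 and IANX 3, the next lowest libraries. In the other 3 libraries Tnnt3 held 11.8% to 14.7%. Ranked by FPKM, which corrects for gene length, Acta1 led in Sham 1 and 2, Mylpf in IANX 1, and Tnnt3 in Sham 3, IANX 2 and IANX 3. Actn3 was last in 5 of the 6 libraries, with 0.931 FPKM in IANX 2 and 15.2 FPKM in IANX 1, and Tnni2 was last in Sham 3. By mean FPKM over the libraries the order was Acta1 (82.4), Mylpf (66.4), Tnnt3 (51.6), Tnnc2 (50.1), Ckm (28.6), Pvalb (28.2), Atp2a1 (18.4), Tnni2 (12.9) and Actn3 (4.21). The ranges of neighbours in this order overlapped over the libraries for all 9 genes.

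**Figure D3:**
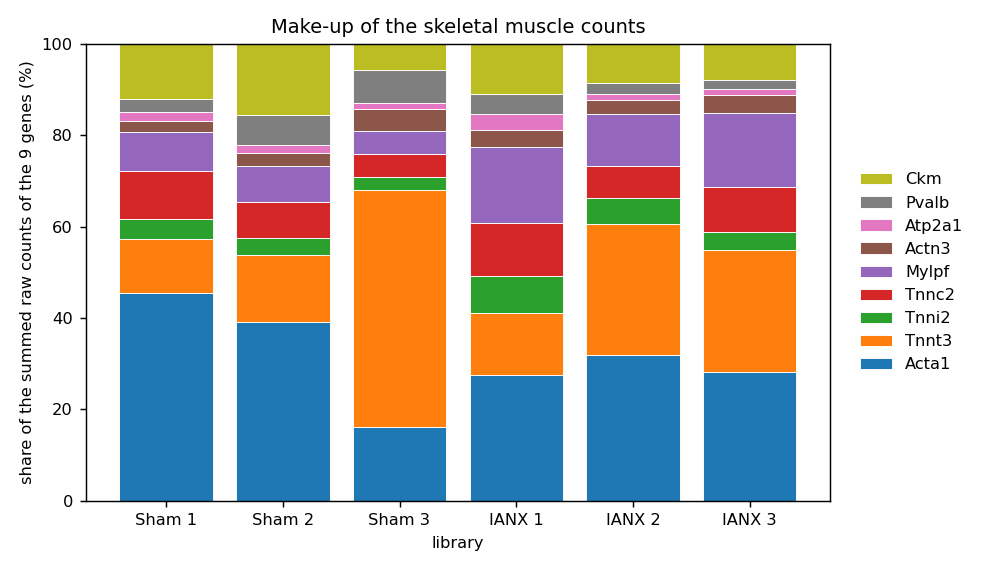
Share of each gene (%) in the summed raw counts of the 9 genes, 1 bar per library. Tnnt3 (orange) takes 51.9% of the bar in Sham 3 and 11.8% in Sham 1, and Acta1 (blue) takes 16.2% and 45.5%.

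Ratios of counts within a library compare the genes with each other and not with the rest of the nerve RNA. Of the 36 ratios between 2 of the 9 genes, 9 separated the groups, 5 of them with Mylpf and 0 with Tnnt3. Some did so narrowly, as Tnni2 per Ckm with 0.48 in Sham 3 (24 and 50 counts) and 0.482 in IANX 3. Of the ratios of all tested genes to any of the 9, 5.05% separated the groups. Of the 8 ratios of another of these genes to Acta1, 1 separated the groups, that of Mylpf. For 2.9% of all tested genes the ratio to Acta1 separated the groups. These shares over all genes are not a like background. The spread that the 9 genes share cancels in a ratio between 2 of them but largely stays in a ratio to another gene. No conclusion is therefore drawn from the difference. Mylpf had 0.190, 0.201 and 0.310 counts per Acta1 count in Sham 1 to 3 and 0.606, 0.353 and 0.574 in IANX 1 to 3. The 95% intervals of Sham 3 (0.217 to 0.436) and IANX 2 (0.297 to 0.419) overlapped, so the gap between these libraries was within counting error. Per count of Tnnc2, Mylpf had 0.835, 0.993 and 1.0 in Sham 1 to 3 and 1.44, 1.61 and 1.63 in IANX 1 to 3. The intervals of the 3 IANX libraries started at 1.27 or above, over the upper ends of Sham 1 (0.938) and Sham 2 (1.18) but not of Sham 3 (1.55). Myh1, which encodes a fast myosin heavy chain and is not among the 9, was also higher per Acta1 count in each IANX library than in each Sham library. It had 0.151, 0.177 and 0.172 counts per Acta1 count in Sham 1 to 3, and 0.907, 0.282 and 0.535 in IANX 1 to 3. The interval of IANX 2, the lowest IANX library (0.233 to 0.340), overlapped that of Sham 3 (0.108 to 0.265) but not that of Sham 2 (0.154 to 0.203), the highest Sham library. The ratio of Tnnt3 to Acta1 did not separate the groups, with 3.19 in Sham 3 above all others, from 0.258 in Sham 1 to 0.947 in IANX 3. The ratios of Mylpf and Myh1 shown here were picked after their values were seen.

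**Figure D4:**
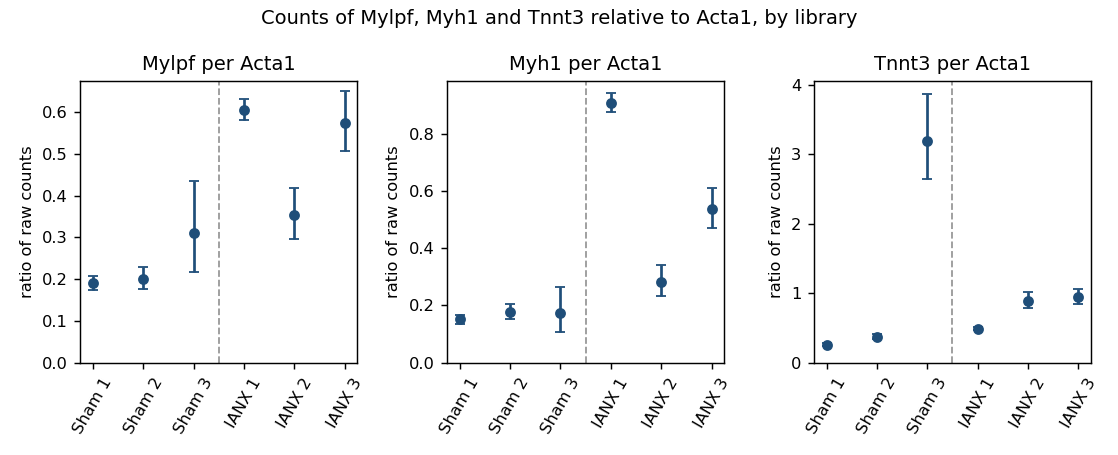
Raw counts of Mylpf, Myh1 and Tnnt3 per raw count of Acta1 in each library, with 95% intervals from exact binomial limits (counting error only) and a dashed line between the groups. Mylpf per Acta1 runs from 0.190 to 0.310 in Sham and from 0.353 to 0.606 in IANX, and Tnnt3 per Acta1 peaks at 3.19 in Sham 3.

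The genes most like the 9 were sought by the Pearson correlation of log2 CPM with the mean of the 9 over the 6 libraries. These libraries share tissue and depth, and the correlation is a description with no test. Among other genes that had a symbol and averaged 5 CPM or more, Mb, which encodes the oxygen store myoglobin, was nearest (r = 0.980). It was followed by Myoz1 (0.978), a Z-disc protein of fast fibers, and Myl1 (0.978), the essential light chain of fast myosin. Myh1 (0.952) and Mybpc1 (0.950), a myosin-binding protein, were also among the nearest 12. Mb had 59.0, 26.1 and 2.88 CPM in Sham 1 to 3 and 130, 7.03 and 12.2 CPM in IANX 1 to 3. Myh1 had 29.3, 19.7 and 1.85 CPM in Sham 1 to 3 and 300.1, 8.01 and 21.9 CPM in IANX 1 to 3, a 163-fold range. The other 7 of the 12 were Cdc40, Mbd5, Heatr5a, Rabep2, Lurap1l, Ankmy2 and Pccb. Their range was much smaller, from 1.11-fold for Cdc40 to 3.67-fold for Lurap1l, and they were highest in IANX 1 as well. Cdc40 ordered the libraries as Acta1 did, and Heatr5a, Rabep2 and Pccb as Tnnt3 and Actn3 did. Mbd5, Lurap1l and Ankmy2 had orders that none of the 9 genes had. The row named Myh1 spans 134410 bases and overlaps that of Myh8, and RefSeq places Myh4 between these genes, so counts of neighbouring myosin genes may not be separated.

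Other genes of skeletal muscle were described in 10 lists by role. Of 135 genes listed, 128 were matched and 98 were tested. Of these, 12 were called higher and 13 lower in IANX, beside 17.8% and 16.6% of all tested genes, with a median log2 fold change of 0.52. The same shares over all tested genes stand beside the counts of calls in each list below. A correlation with the 9 genes above 0.8 was found for 24 of the 98, and for 176 of all 15374 tested genes. None of those 24 was called. A gene that follows a profile whose groups overlap could hardly pass the test, so this count is a description only. The 25 called genes had correlations from -0.45 to 0.49.

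**Figure D5:**
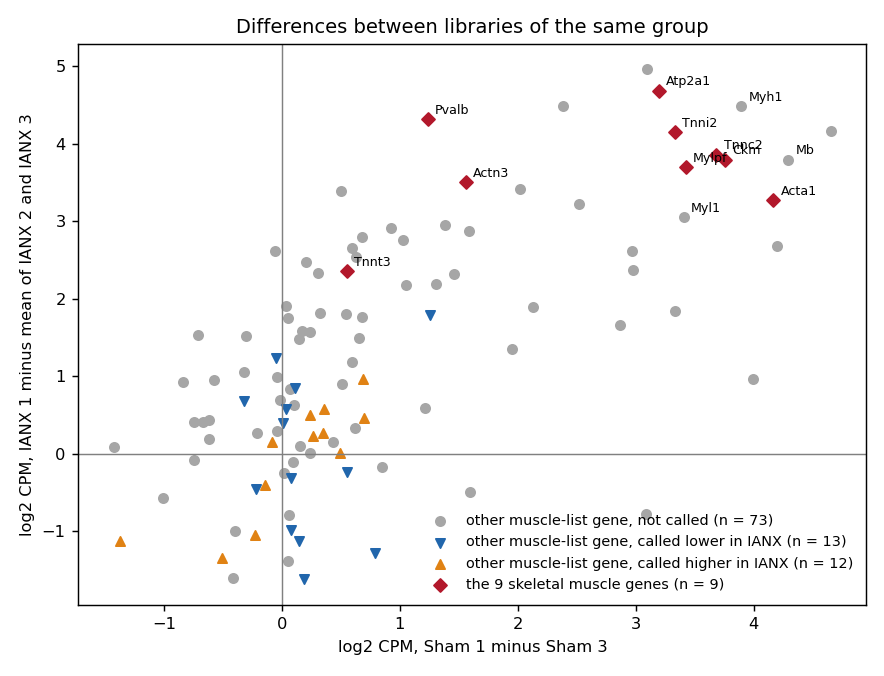
Differences in log2 CPM between libraries of the same group, Sham 1 minus Sham 3 on the horizontal axis and IANX 1 minus the mean of IANX 2 and IANX 3 on the vertical axis, for the 9 genes (red) and the 98 other muscle-list genes. The 9 genes lie to the upper right, and most of the 25 called genes (triangles) lie near the center.

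Fast thick filament genes held 4 close followers among 7 tested, Myl1, Myh1, Mybpc2 and Mylk2. None of these passed the test, with adjusted p-values from 0.171 for Myh1 to 0.729 for Mylk2. Myom2, an M-band protein, and Mybph, a myosin-binding protein, were called lower. Myom2 had 42.5, 16.9 and 17.7 CPM in Sham 1 to 3 and 7.75, 2.51 and 1.84 CPM in IANX 1 to 3, a log2 fold change of -2.67 ± 0.63 (SE, adjusted p = 0.0166), and its call was lost without Sham 1 (edgeR adjusted p = 0.0599). The slow fiber list had 1 call among 8 tested. Myh7, the slow myosin heavy chain, had 9.04, 10.1 and 6.13 CPM in Sham 1 to 3 and 0.340, 0.327 and 0.533 CPM in IANX 1 to 3 (log2 fold change -4.37 ± 0.40, adjusted p = 0.000655). Myh7 was thus low in all 3 IANX libraries, IANX 1 included. Mybpc1 of the same list was instead highest in IANX 1 (41.8 CPM, against 0.148 to 6.84 CPM elsewhere). It did not pass (edgeR adjusted p = 0.262), and was the only 1 of the 8 tested that was highest there. Of genes below the filter, Myl2, Myl3 and Myoz2 had their most counts in IANX 1 (13, 39 and 23), and Sln in IANX 3 (33). These genes were picked after their values were seen. Tpm3, Atp2a2 and Tnni1, the most abundant of that list per length, did not pass.

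In the thin filament and Z-disc list, 8 of 15 tested genes had correlations above 0.8, among them Myoz1. Tpm1 was called higher (374.7, 332.1 and 317.1 CPM in Sham 1 to 3 and 890.1, 407.6 and 974.9 CPM in IANX 1 to 3), and Xirp1 lower. The Tpm1 call was lost with the replicate number as a block (edgeR adjusted p = 0.0505) and without IANX 1, IANX 3 or any of the Sham libraries (0.0708 to 0.12). The Xirp1 call was lost without IANX 3 or any of the Sham libraries (edgeR adjusted p = 0.057 to 0.0718). Tpm1 encodes a tropomyosin that many cells outside muscle also make, and Tpm2, another tropomyosin, did not pass. In the calcium list 0 of 11 tested genes passed, beside 34.4% of all tested genes. All 11 were highest in IANX 1, beside 18.3% of all tested genes. The lead was narrow for Jph2 (4.19 CPM against 4.03 CPM in IANX 3). Casq1, which encodes the calcium store protein calsequestrin, had 19.7, 19.9 and 20.5 CPM in Sham 1 to 3 and 37.9, 5.12 and 7.17 CPM in IANX 1 to 3. Its Sham libraries were level where those of Acta1 ran over 18.1-fold. Casq1 was called lower without IANX 1 (log2 fold change -1.71, edgeR adjusted p = 0.00534). Cacnb1 and Hrc, the next in level per length, did not pass in either fit.

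Of the 14 tested genes of energy metabolism, 6 had correlations above 0.8, with Mb the highest, and 3 were called. Phka1, a phosphorylase kinase subunit, was higher in IANX, a call lost without IANX 1, IANX 3, Sham 2 or Sham 3 (edgeR adjusted p = 0.0643 to 0.0941). Gpd1, the cytosolic glycerol-3-phosphate dehydrogenase, was lower, with 205.9, 215.4 and 201.6 CPM in Sham 1 to 3 and 10.9, 9.81 and 5.39 CPM in IANX 1 to 3 (log2 fold change -4.57 ± 0.29, adjusted p = 0.000276). Pfkm, the muscle-type phosphofructokinase, fell as well (log2 fold change -2.45 ± 0.18). Pfkm had 342.9, 349.3 and 341.4 CPM in Sham 1 to 3 and 75.1, 59.2 and 54.7 CPM in IANX 1 to 3. The Sham libraries were thus close to each other for both genes.

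Cryab and Klhl40 were called lower among 9 tested genes of sarcomere assembly, and Asb2 and Hspb7 did not pass. The Klhl40 call was lost without IANX 3 or any of the Sham libraries (edgeR adjusted p = 0.0597 to 0.0762). Cryab encodes a small heat-shock protein that Schwann cells also make, and had 2084, 2497 and 1890 CPM in Sham 1 to 3 and 82.8, 284.1 and 114.1 CPM in IANX 1 to 3. In the membrane list, Dmd, Dysf and Mlip were called lower among 9 tested, and 0 of the 9 had a correlation above 0.8 with the muscle genes. The Mlip call was lost without Sham 2 (edgeR adjusted p = 0.0507). Dmd encodes dystrophin, of which Schwann cells make a short form. It had 333, 278.8 and 315.8 CPM in Sham 1 to 3 and 64.2, 144.4 and 110.6 CPM in IANX 1 to 3. The Schwann cell and myelin list was lower in IANX for 12 of 12 genes, summing to 175100 to 229000 CPM in Sham and 3953 to 14740 CPM in IANX. The part of those cells in these calls was not tested.

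Genes of myogenic regulation were scarce. Pax7, the transcription factor of satellite cells, had 0 counts in all 6 libraries, where 3 counts would be 0.163 to 0.250 CPM. Myod1, Myog and Myf5 had at most 15 counts in any library and were not tested. Myf6, another myogenic factor, had 4, 10 and 0 counts in Sham 1 to 3 and 37, 3 and 5 counts in IANX 1 to 3. Myf6 was highest in IANX 1 as the 9 genes were, was below the filter and was picked after its values were seen. Among the 6 tested genes of that list, Mef2c and Six4 were called higher, 0 were called lower, and Msc did not pass. The Mef2c call was lost without Sham 2 or Sham 3 (edgeR adjusted p = 0.0645 and 0.0781). Among isoforms of embryonic and regenerating fibers, Ncam1 and Ankrd1 were called higher and Mustn1 lower of 7 tested, and Tnnt2 did not pass. The Ncam1 call was lost on leaving out any 1 library other than IANX 2 (edgeR adjusted p = 0.0614 to 0.111). That of Ankrd1 was lost on leaving out any 1 library other than IANX 1 (0.0547 to 0.143) and with no filter on low counts (0.0531), and that of Mustn1 with library sizes alone (0.0515). The embryonic myosin Myh3 was highest in IANX 3 (160 counts) and not in IANX 1 (56 counts), and so was the neonatal myosin Myh8 (49 and 9 counts). Both were picked after their values were seen.

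Of the 12 tested genes of the denervation and atrophy list, Gadd45a, Cdkn1a, Runx1 and Fbxo32 were called higher and Rapsn lower. Over all tested genes, 17.8% were called higher and 16.6% lower. The correlations of these called genes with the 9 muscle genes ran from -0.29 for Gadd45a to 0.49 for Cdkn1a. Gadd45a was highest in IANX 2 (210.6 CPM). The part of cells outside muscle in these calls was not tested. The Gadd45a call was lost with the replicate number as a block (edgeR adjusted p = 0.0694), with limma (0.0687) and without any of the Sham libraries (0.106 to 0.136), and its log2 fold change was 0.79 without IANX 2 against 1.79 with it. The Fbxo32 call was lost without IANX 3 or Sham 3 (edgeR adjusted p = 0.0504 and 0.0718). Rapsn encodes rapsyn, which clusters acetylcholine receptors at the neuromuscular junction. It had 67.5, 119.3 and 78.7 CPM in Sham 1 to 3 and 2.55, 4.85 and 2.55 CPM in IANX 1 to 3 (log2 fold change -4.73 ± 0.36, adjusted p = 0.000463). Fbxo32, a ubiquitin ligase subunit of muscle atrophy, had 10.4, 4.25 and 7.31 CPM in Sham 1 to 3 and 19.0, 17.5 and 20.5 CPM in IANX 1 to 3. The IANX libraries were level for Fbxo32 where those of the 9 genes were 6.36-fold apart or more. Colq, the collagen tail of acetylcholinesterase at the junction, had 4, 3 and 7 counts in Sham 1 to 3 and 187, 3 and 14 counts in IANX 1 to 3. It was below the filter and was picked after its values were seen.

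Without IANX 1, 9 of the list genes were called higher and 20 lower among 100 tested. Over all genes in that fit, 1977 were called higher and 1934 lower among 15696 tested. With library sizes alone in place of TMM, 23 were called higher and 12 lower, while the median over all genes moved on the log2 scale from 0.08 to 0.53 and the calls over all genes from 2734 higher and 2550 lower to 5919 and 1468.

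The summed markers of each other tissue ordered the libraries differently from the 9 genes. Smooth muscle markers summed to 1303, 1375 and 1426 CPM in Sham 1 to 3 and 521.8, 396 and 841.9 CPM in IANX 1 to 3, so that Sham 3, the lowest in skeletal muscle RNA, was the highest. Of the 7 heart markers, Nppa, Myl7 and Tnni3 reached at most 0.566 CPM, and Ryr2, Tnnt2 and Actc1 at most 3.31, 4.83 and 7.76 CPM. Myh6 had 80.8 to 176 CPM in Sham and 4.87 to 12.3 CPM in IANX, and was called lower (edgeR adjusted p = 0.00136). Tooth enamel and dentin markers summed to 56090 CPM in IANX 1 and to 60770 CPM in IANX 3, against 132 to 1966 CPM in the other 4 libraries. IANX 3 thus had the higher tooth sum with 8.27-fold less muscle RNA than IANX 1. Bone markers were highest in IANX 1 (24550 CPM) and next in IANX 2 (18880 CPM), the library lowest in muscle RNA within IANX. Keratinized epithelium markers summed to 1576 CPM in IANX 1 and 3438 CPM in IANX 3, and to at most 25.7 CPM elsewhere. Macrophage and fibroblast markers were highest in IANX 2 (1111 and 13580 CPM), and adipocyte markers in Sham 1 (194 CPM). Single markers came closer to the muscle genes, among them Tnmd of tendon (r = 0.870, at most 1.59 CPM) and Bglap of bone (r = 0.767, 238 to 1674 CPM). The part of these tissues in the muscle levels was not tested.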

How the data were processed

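Bulk RNA-seq of the IAN was analysed in 3 Sham and 3 IANX libraries, described in the study as biological replicates. Per the submitters' processing notes, HISAT2 2.0.5, StringTie 1.3.3b, featureCounts 1.5.0-p3 and DESeq2 1.20.0 were used with genome build rn6. Libraries were made by the authors from poly-A RNA. The deposited raw counts per gene are whole numbers. The FPKM values deposited by the authors equal the count over the gene length and 1 factor per library. The annotation release and strand setting are not given in the sources used here. The 5 columns of the authors' own comparison hold fold changes and p-values and were not used.

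Genes were kept by filterByExpr, normalized by TMM and compared between IANX and Sham by edgeR 4.0.16 in R 4.3.3 (glmQLFit and glmQLFTest, two-sided). P-values were adjusted by Benjamini-Hochberg across the 15374 genes kept, with a call at an adjusted p under 0.05. CPM are TMM-normalized, and log2 CPM use a prior count of 2. The fit was tested on simulated data with 200 changed genes. Counting intervals are exact (95%). Promoters came from RefSeq GRCr8, which is not the build of the files. The members and lists were chosen with earlier results of these data known. Named are the 9 genes, of each muscle list the 3 genes highest in mean FPKM and up to 4 called genes with the smallest adjusted p, and the 12 genes most like the 9. Of the list symbols, 8 were unmatched and not analysed here, and some genes that this rule names are not reported here. The 12 alternatives were DESeq2 1.42.0, edgeR with RLE factors, with library sizes only or without the filter, the replicate number as a block, limma 3.58.1 on log2(FPKM + 1) with at least 1 FPKM in 3 libraries, and leaving out each library.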

Additional observations from a re-analysis of the deposited data

How the results depend on the processing

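Of the 9 muscle genes, 0 were called higher and 0 lower under every alternative other than leaving out libraries. Over the 6 fits that left out 1 library, 0 were called higher and 0 to 1 lower, the call being Pvalb without IANX 1. The log2 fold change ranged over these fits from -1.60 to 1.11 for Acta1, -1.79 to 1.08 for Ckm, -0.32 to 2.59 for Mylpf, -0.40 to 1.21 for Tnnt3, -0.99 to 2.48 for Tnni2, -1.18 to 2.02 for Tnnc2, -1.68 to 2.34 for Atp2a1, -2.25 to 1.17 for Pvalb and -0.76 to 1.84 for Actn3, with every lowest value reached without IANX 1. Among other muscle genes it ranged from -1.23 to 1.06 for Myl1, -0.18 to 3.34 for Myh1, -1.61 to 1.76 for Mb, -2.13 to 2.16 for Myoz1, -0.06 to 0.50 for Tpm2, -1.71 to 0.13 for Casq1, -1.13 to 0.49 for Hrc and -0.0027 to 0.26 for Tpm3. The number of list genes called higher ranged from 4 to 26 and lower from 10 to 20, and the number of all genes called higher from 961 to 3712 and lower from 1494 to 3504. The numbers were lowest for higher calls without Sham 2 or Sham 3 (4 each).

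With the replicate number as a block (replicate block), Pvalb turned to -0.56 and Hrc to -0.39, 0 of the 9 genes were called, and the list counts were 11 higher and 14 lower. Same-numbered libraries had correlations of their deviations of 0.0858, -0.0144 and 0.0753, and IANX 2 correlated best with Sham 3, so the numbers were not taken as pairs. Limma on log2(FPKM + 1) turned Pvalb to -0.52 and Hrc to -0.17. Library sizes alone gave 23 list genes higher, and turned Casq1 to 0.20, Asb2 to 0.34 and Tnnt2 to 0.049. Of the values that changed sign, Pvalb without IANX 1 was the only one that passed its test. Calls of list genes that single libraries decided are given with the genes. The causes were not tested. The counts in Sham 3, 24 for Tnni2 and 12 for Atp2a1, limit the precision of the lowest levels.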

Other observations

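The 3 rows given here carry no gene symbol and were picked after their values were seen. The row described by the rat SERCA1 protein had 49, 9 and 12 counts in Sham 1 to 3 and 947, 3 and 31 counts in IANX 1 to 3, with a correlation of 0.865 with the 9 muscle genes. A row described by the mouse titin protein (chr3:63575705-63581553, minus strand of rn6) had 1, 1 and 0 counts in Sham 1 to 3 and 85, 2 and 4 counts in IANX 1 to 3, and was below the filter. A row described by the mitochondrial protein NADH-ubiquinone oxidoreductase chain 4 (chr20:19484407-19485844, plus strand of rn6) had 16998, 5357 and 734 counts in Sham 1 to 3 and 17702, 1069 and 811 counts in IANX 1 to 3. Its correlation with the 9 genes was 0.882, but Sham 1 exceeded IANX 1 in CPM (1174 against 1002). It did not pass the edgeR test (log2 fold change -0.60, adjusted p = 0.755).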
